A study of Rattus norvegicus with 6 samples.

Results

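Gamma-synuclein (Sncg) is the member of the synuclein family described here, in the substantia nigra pars compacta of rats given the pesticide rotenone. Synucleins are small proteins of axons and presynaptic terminals that bind membranes and vesicles. Gamma-synuclein is abundant in peripheral sensory and motor neurons and in catecholaminergic neurons of the brainstem, and in the midbrain it is found in the dopamine neurons that also express Th, the rate-limiting enzyme of dopamine synthesis, and Slc6a3, the dopamine transporter of the plasma membrane. Probes were taken by their RefSeq accession, without its version. Of the 33849 probes on the array, 1 is described here, that of Sncg (probe GE21164, accession NM_031688.1). By gene that is 1 of the 4013 genes that could be named. Beta-synuclein (Sncb) had 0 probes by this rule and was not analysed here. Probes with other accessions were not searched, so the array may still hold a probe for it. Th has 1 probe (GE1254069) and Slc6a3 has 2 (GE1176496 and GE19906).

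The animals were 6 male Sprague Dawley rats aged 5 months. Rotenone, which blocks complex I of the respiratory chain, was released from osmotic pumps under the skin of 3 rats for 28 days, at a dose of 0.5 mg/kg/day. Pumps of the other 3 rats held the solvent (dimethylsulfoxide and polyethylene glycol with the surfactant Pluronic F-127). The tissue was cut out by laser capture as a region, and its RNA was amplified and hybridised to 1 one-colour array per rat. In such bulk samples fewer cells of a type and less RNA per cell cannot be told apart. Rats are named by the numbers in their labels, 11, 7 and 1 for solvent and 16, 13 and 9 for rotenone.

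The median net signal of the arrays lay between 11.7 and 16.6 intensity units over a local background of 39 to 41, and 44.2% to 51.5% of probes were above background. The array of rotenone rat 16 stood apart from the others. Its mean correlation with them across probes was 0.931, against 0.956 to 0.964 for the rest, and it had the lowest median signal. The file header of solvent rat 7 carries another day than the other 5, without saying what the day marks. Of the dopamine neuron markers, 14 of the 17 found on the array by name could be tested. Th, Slc6a3 and Ddc, the decarboxylase that makes dopamine, were above background on all 6 arrays. Markers of astrocytes (8 of 10 on the array by name), oligodendrocytes (8 of 9) and GABA neurons (7 of 7) were measured as well, so the samples hold RNA of other cells.

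Sncg was well measured on all 6 arrays and lower in each rotenone rat than in each solvent rat, but the difference did not pass the test over all probes. The net intensity, which is the spot mean minus the median of the local background, was 2249.9 in solvent rat 11, 2285 in rat 7 and 2208 in rat 1. With rotenone it was 829 (rat 16), 1651 (rat 13) and 1622 (rat 9). The local background at this spot lay between 35 and 44 units. The 3 solvent rats were nearly alike, 2 of the rotenone rats lay close together below them, and rat 16 lay far below both, so the groups did not overlap. As a share of the solvent mean, the rotenone rats were at 36.9% (rat 16), 73.5% (rat 13) and 72.2% (rat 9). The group means were 2248 ± 38.7 with solvent and 1367 ± 466 with rotenone (SD, n = 3 each), a ratio of 0.608.

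The authors' scaled intensity, in which each array is divided by about its own median, showed the same order of the groups with a smaller gap. It was 153, 142 and 132 in solvent rats 11, 7 and 1 and 70.8, 111 and 116 in rotenone rats 16, 13 and 9. The means were 143 ± 10.6 and 99.5 ± 25.0 (SD, n = 3 each), a ratio of 0.698. Scaling brought rat 16 from 36.9% to 49.6% of the solvent mean, the array with the lowest median signal.

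**Figure D1:**
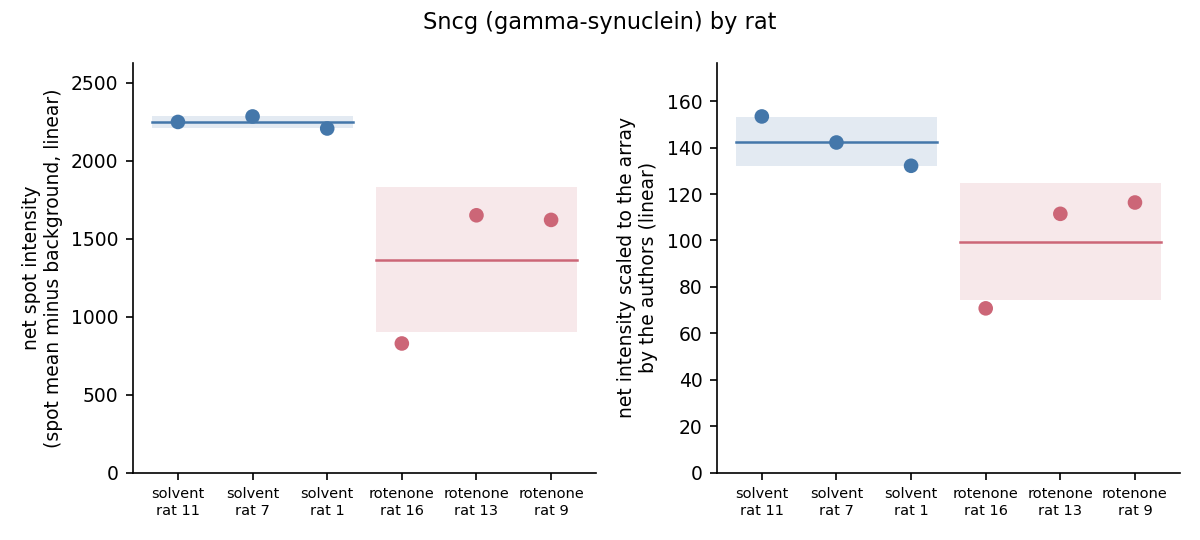
Sncg in each rat, as net spot intensity (left panel, linear units) and as the intensity scaled by the authors to the array (right panel, linear units). Points are rats, lines are group means and shaded bands are 1 SD (n = 3 each): all 3 rotenone rats lie below all 3 solvent rats in both panels, with rat 16 lowest at 829 units.

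On the normalized log2 scale (background corrected, then quantile normalized between arrays) Sncg was at 11.19, 11.14 and 11.10 in solvent rats 11, 7 and 1 and at 9.90, 10.77 and 10.75 in rotenone rats 16, 13 and 9. The means were 11.14 ± 0.05 and 10.47 ± 0.50 (SD, n = 3 each). The difference, rotenone minus solvent, was -0.67 ± 0.23 (SE), with a 95% interval from -1.19 to -0.15. Its unadjusted p in limma's moderated test (two-sided) was 0.0169, and its p after Benjamini-Hochberg adjustment over the 16708 probes tested was 0.895. The exact permutation test over rats gave p = 0.1, which is the smallest that 3 rats against 3 allow. Without rotenone rat 16 the difference was -0.38 (interval -0.72 to -0.04, unadjusted p 0.0325 in limma), and without solvent rat 7, whose file header carries the other day, it was -0.67 (unadjusted p 0.0382).

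Of the 16708 probes, 0 (0%) passed limma's test at an adjusted p of 0.05. At an unadjusted p of 0.05 it was 825 (4.94%), of which 493 (2.95% of the probes tested) were lower with rotenone. The groups did not overlap, with rotenone lower, at 817 probes (4.89%). Sncg is 1 of these 817 probes. By the size of its difference it ranked 129 from the most negative, with 0.766% of probes more negative, and by p it ranked 219. Among the 2263 named genes tested it was at place 26 by p. Among the 1004 probes whose mean level lay within 1 log2 unit of that of Sncg, it ranked 12 from the most negative, and 41 of these probes (4.08%) were lower without overlap.

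**Figure D2:**
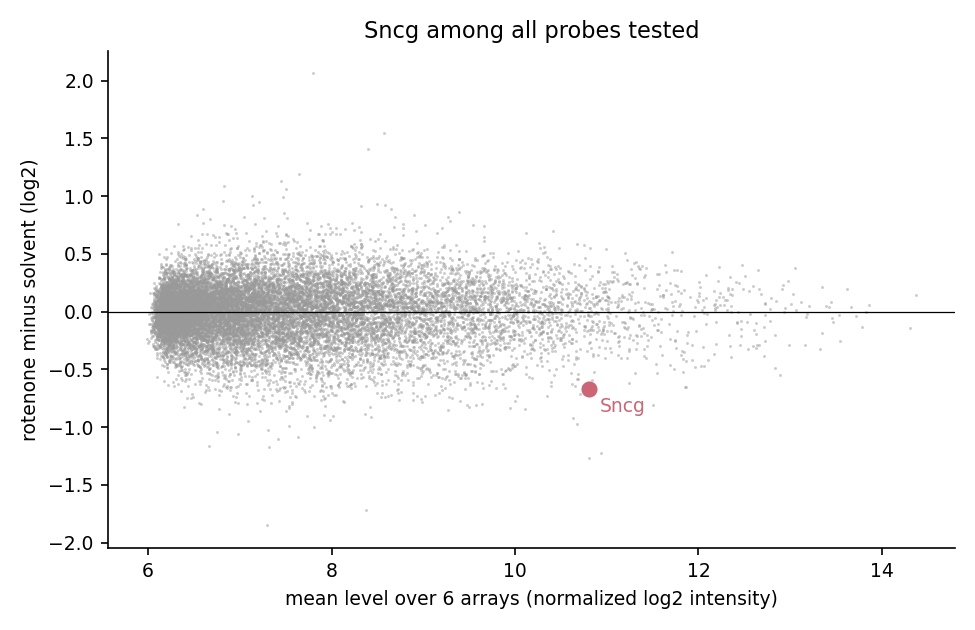
Each grey point is 1 of the 16708 probes tested, by its mean normalized log2 level over 6 arrays (horizontal axis) and its difference, rotenone minus solvent, in log2 (vertical axis). Sncg, in red, lies at -0.67 near the lower edge of the probes of like level, whose median difference was 0.01.

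The spread of Sncg differed between the groups. Its SD over the solvent rats was 0.05 on the log2 scale, where the median of the 1004 probes of like level was 0.19 and 3.39% of them had a smaller SD. Over the rotenone rats it was 0.50, against a median of 0.22, and 89.6% of these probes had a smaller SD. Rat 16 made most of that spread: the deviation from the solvent mean was -1.24 in rat 16, -0.38 in rat 13 and -0.39 in rat 9.

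Sncg gave about the same difference whether the spot's pixels were summarised by their mean or their median. The scanner marked it as irregular on 5 of the 6 arrays, as it did 97.9% to 99.0% of all probes with a net signal over 100. The median of the spot's pixels was 2430, 2031 and 2435 in solvent rats 11, 7 and 1 and 913, 1395 and 1774 in rotenone rats 16, 13 and 9, again without overlap. With spot medians in place of means the difference of Sncg was -0.65 ± 0.24 (SE).

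**Figure D3:**
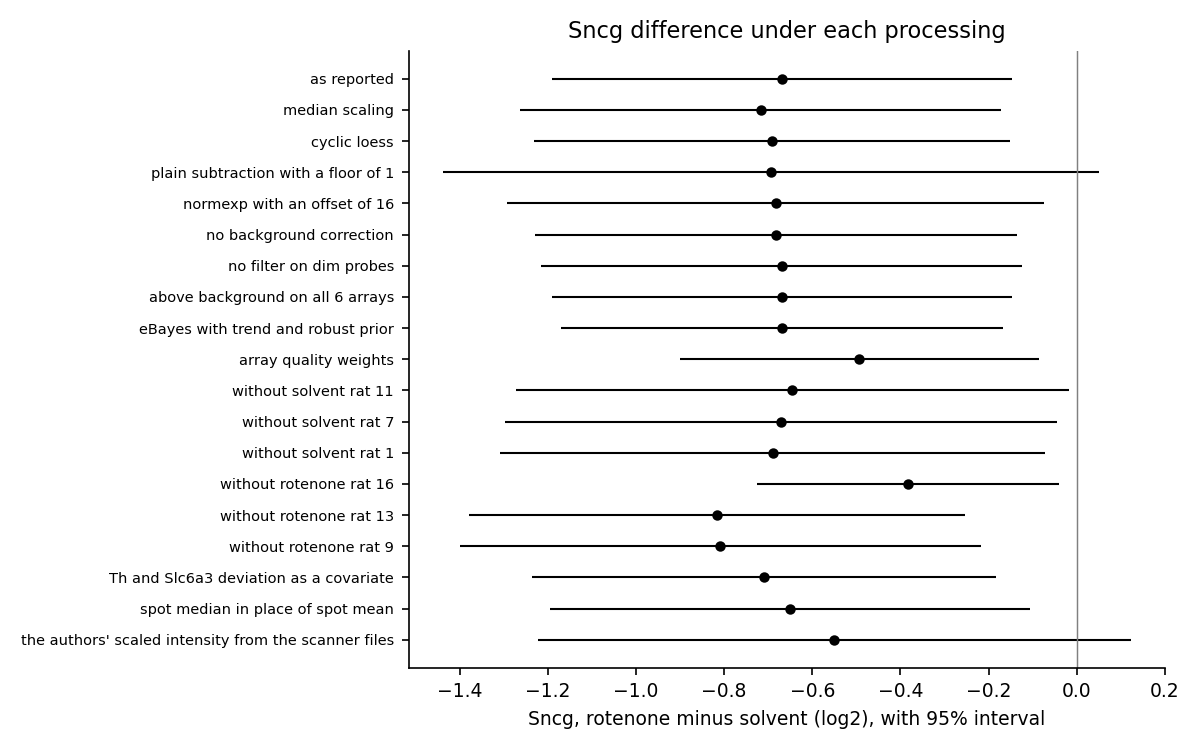
Difference of Sncg, rotenone minus solvent (log2, horizontal axis), under each processing, with points for the estimates and bars for limma's 95% intervals. Every point drawn lies below 0, from -0.82 without rotenone rat 13 to -0.38 without rotenone rat 16, and the authors' value table as deposited, at 1.40 with the values of solvent rat 7 beside the wrong probes, is not drawn.

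Neither Th nor Slc6a3 passed the test, and their order over the rats was not that of Sncg. Th had a net intensity of 5655, 7504 and 7680 in solvent rats 11, 7 and 1 and of 9607, 5898 and 7331 in rotenone rats 16, 13 and 9. The groups overlapped, and rat 16, lowest in Sncg, was the highest of the 6 rats in Th. On the normalized log2 scale Th differed by 0.12 ± 0.20 (SE; limma, adjusted p 0.934), and by -0.000748 without rotenone rat 16 and -0.01 without solvent rat 11. The bright probe of Slc6a3 had a net intensity of 6183, 6924 and 7438 with solvent (rats 11, 7 and 1) and of 5569.5, 5939 and 5916 with rotenone (rats 16, 13 and 9). On the log2 scale it was lower with rotenone without overlap, by -0.20 ± 0.16 (SE; limma, adjusted p 0.897), yet in the authors' scaled intensity the group means were 433 and 434 and the groups overlapped. Its second probe, GE19906, was not well above background on any array.

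For Th and Slc6a3 the pixel median lay further from the spot mean than for Sncg on each of the 6 arrays, as a share of the mean. The pixel median of the Slc6a3 spot was 5431, 3618 and 4077 in solvent rats 11, 7 and 1 and 3304, 2207 and 1678 in rotenone rats 16, 13 and 9. With spot medians its difference was -0.80 ± 0.28 (SE; unadjusted p 0.0164, adjusted p 0.900 in limma), against -0.20 with means. The Th spot had a pixel median of 1528, 1164 and 1458 with solvent and 2042, 874 and 1705 with rotenone, far below its mean on each array, and its difference with medians was 0.18.

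Sncg was also set against the dopamine markers within each rat, by taking from its log2 value the mean deviation of Th and Slc6a3 on the same array. Relative to the solvent mean this value was 0.24, -0.08 and -0.16 in solvent rats 11, 7 and 1 and -1.28, -0.21 and -0.40 in rotenone rats 16, 13 and 9. The lowest solvent rat and the highest rotenone rat lay close together, and the groups did not overlap. The difference was -0.63, with an exact permutation p of 0.1 (two-sided, the smallest possible). It was -0.30 without rotenone rat 16 and -0.34 with spot medians (exact permutation p = 1). With the Th and Slc6a3 deviation as a covariate in limma, Sncg differed by -0.71 ± 0.24 (SE; unadjusted p 0.0135, adjusted p 0.763).

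**Figure D4:**
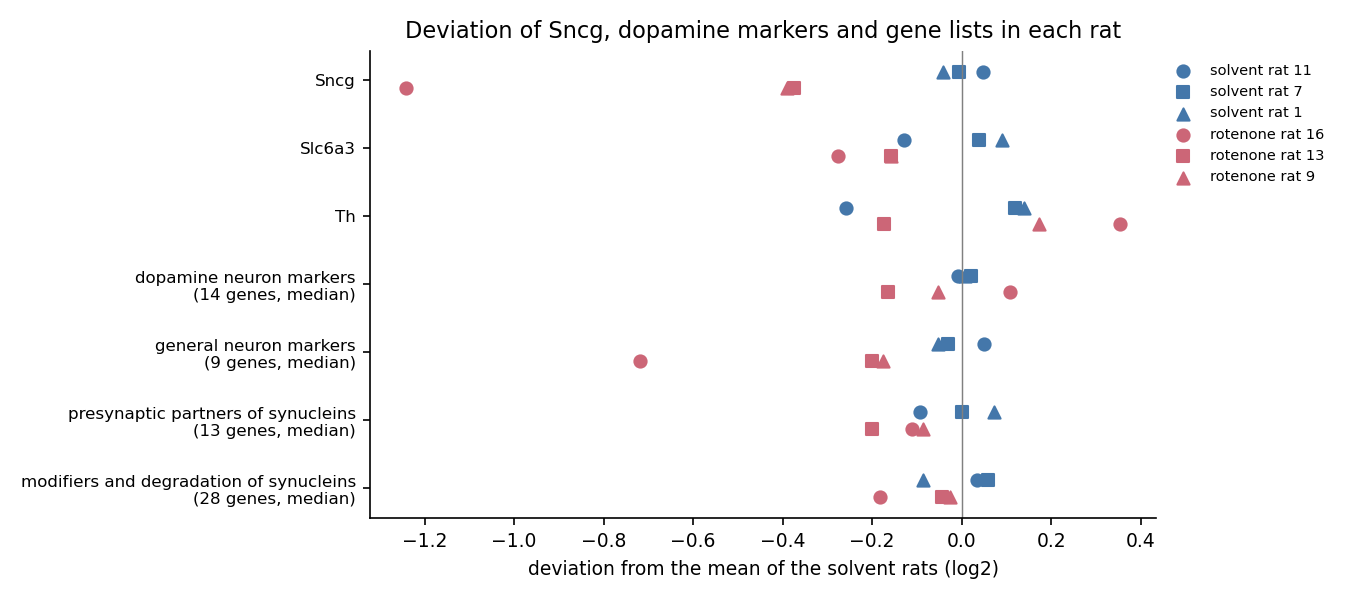
Deviation from the mean of the solvent rats in log2 (horizontal axis) for Sncg, the bright probe of Slc6a3, Th and the medians of 4 gene lists, with 1 point per rat, blue for solvent and red for rotenone. Rat 16 lies at -1.24 for Sncg and -0.72 for the general neuron markers, but at 0.35 for Th and 0.11 for the dopamine neuron markers.

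Across the 6 rats, 3 relations were computed on the log2 scale. For Sncg and Th, Pearson's r was -0.62 (exact permutation p 0.182, adjusted over the 3 relations 0.273) and Spearman's rho was -0.83 (exact permutation p 0.0583, adjusted 0.167). For Sncg and Slc6a3, r was 0.77 (exact permutation p 0.0833, adjusted 0.25) and rho was 0.75 (exact permutation p 0.111, adjusted 0.167). For Th and Slc6a3, r was -0.08 (exact permutation p 0.839, adjusted 0.839) and rho was -0.41 (exact permutation p 0.433, adjusted 0.433). None of the 3 passed the test.

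These values moved with single rats and with the scaling. Without rotenone rat 16 they were -0.12, 0.62 and 0.53 in the same order. Without the 2 rats farthest from the median of the marker on the x axis they were -0.99 (Th as x, without solvent rat 11 and rotenone rat 13), 0.98 (Slc6a3 as x, without solvent rats 1 and 7) and -0.87 (Th as x, Slc6a3 as y, without the same rats as for the first), over the 4 rats left. Taken as deviations from the group means, they were -0.64, 0.44 and 0.24. In the authors' scaled intensity they were -0.87, -0.60 and 0.86, so that the sign of Sncg with Slc6a3 turned.

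The dopamine neuron markers, Th and Slc6a3 among them, were split. Of 14 measured genes of this list, 7 were higher and 7 lower with rotenone, 0 passed the adjusted test in limma, and the median difference was 0.00171, against 0.01 over all probes tested. Of the 7 lower, 1 was above background on 3 solvent arrays and 0 rotenone arrays. That gene was tested only through the group in which it was higher, which limits the reading of this split. With 1 probe per gene, the brightest, 1 of the 14 had an unadjusted p below 0.05 (4.94% over all probes), Nr4a2, a transcription factor needed for the dopamine phenotype. Its log2 level with solvent was 7.20 (rat 11), 7.39 (rat 7) and 7.54 (rat 1), and with rotenone 5.94 (rat 16), 6.39 (rat 13) and 7.44 (rat 9), a difference of -0.79 ± 0.32 (SE). Rat 9 lay within the solvent range, unlike in Sncg. The signal of Nr4a2 cleared the background in only 2 of the 3 rotenone rats, and 5.94 in rat 16 is a level near background. The size of its difference thus rests in part on a poorly measured value. Slc18a2, which loads monoamines into vesicles, was at 9.39, 9.65 and 9.83 with solvent and at 9.10, 8.51 and 9.63 with rotenone in the same order of rats, and here rat 13, not rat 16, was lowest. The probes of Gfra1, a receptor of the growth factor GDNF, disagreed. The brightest differed by 0.00405 ± 0.19, while probe GE22011 was at 8.10, 7.85 and 7.87 with solvent and at 6.90, 7.70 and 6.63 with rotenone in the same order of rats. The groups did not overlap at GE22011, and the difference was -0.86 ± 0.26 (SE; unadjusted p 0.00709, adjusted p 0.895 in limma). The list's median deviation was 0.11, -0.17 and -0.05 in rotenone rats 16, 13 and 9, and the median difference without rat 16 was -0.16.

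General neuron markers lay on the same side as Sncg. The mean of each of the 9 measured genes of this list was lower with rotenone, and the median difference was -0.36, against 0.01 over all probes. Of the 9, 0 passed the adjusted test in limma, and for 4 the unadjusted p was under 0.05, with lower values in rotenone rats (2.95% over all probes). As a median over the list, rats 16, 13 and 9 deviated by -0.72, -0.20 and -0.18, with rat 16 far below the other 2 as in Sncg. The solvent rats lay between -0.05 and 0.05. Without rat 16 the median difference was -0.20. Ina, an intermediate filament protein of neurons, was at 10.38, 10.03 and 10.76 in solvent rats 11, 7 and 1 and at 9.02, 9.65 and 10.17 in rotenone rats 16, 13 and 9, so that the groups overlapped. The difference of Ina was -0.78 ± 0.29 (SE; unadjusted p 0.0219 in limma). Gap43, a protein of growth cones and presynaptic terminals, was at 12.13, 11.89 and 11.93 with solvent and 11.26, 11.38 and 11.80 with rotenone in the same order, without overlap. Its difference was -0.50 ± 0.19, and that of its second, less bright probe was -0.97 ± 0.37. The genes Syn1 and Syn2 of this list are also in the list of presynaptic partners, and Uchl1 is also in that of modifiers. The part of the neuron list in the difference of Sncg was not tested.

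Synucleins act on the vesicle release machinery, and 0 of the measured genes listed as presynaptic partners passed the test. Of 24 genes listed as presynaptic partners, 19 were on the array by name and 13 were measured, of which 4 were higher and 9 lower, with a median difference of -0.15 against 0.01 over all probes. The groups did not overlap for 2 of the 13, Syn2 (lower) and Rab1a (higher), against 9.97% of all probes in either direction. Syn2, a synapsin that tethers vesicles, was at 6.61, 6.69 and 6.80 in solvent rats 11, 7 and 1 and at 6.08, 6.43 and 6.38 in rotenone rats 16, 13 and 9. Rab1a, a GTPase of transport from the endoplasmic reticulum to the Golgi, differed by 0.30 ± 0.15 (SE; unadjusted p 0.0823 in limma). The vesicle SNARE Vamp2 differed by -0.15 ± 0.29 and the plasma membrane SNARE Stx1a by 0.08 ± 0.25. The SNARE-separating ATPase Nsf differed by -0.38 ± 0.23, the complexin Cplx2 by -0.48 ± 0.31 and the vesicle proteins Syp and Sv2a by -0.10 ± 0.17 and -0.17 ± 0.23. Nsf was above background on 5 of the 6 arrays, with rat 16 near background at 6.03. The probe of the SNARE gene Snap25 was above background on 0 of the 6 arrays.

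Genes listed because their products modify, bind or degrade synucleins were divided about evenly. Whether these products act on gamma-synuclein was not tested. Of 53 listed genes 35 were on the array by name and 28 were measured, 13 higher, 15 lower and 0 past the adjusted test in limma, with a median difference of -0.04, against 0.01 over all probes. The groups did not overlap for 1 of them, the calpain Capn1, which cleaves synuclein and differed by 0.23 ± 0.15 (SE), against 9.97% of all probes in either direction. With 1 rat left out the list's median ranged from -0.11 (without rotenone rat 9) to -0.00576 (without solvent rat 7). Klk6, a secreted protease that cleaves synuclein, had the lowest unadjusted p of the list (0.0465 in limma) and differed by -0.47 ± 0.21 (SE). It was above background on 3 solvent arrays and 1 rotenone array, so its rotenone level lies near background. The casein kinase subunit Csnk2b was at 10.22, 10.31 and 9.85 in solvent rats 11, 7 and 1 and at 8.64, 9.78 and 9.97 in rotenone rats 16, 13 and 9, with rat 16 far below the rest as in Sncg. Ppp2ca, a catalytic subunit of protein phosphatase 2A, had its lowest value in rat 16 too, and its probes differed by -0.70 ± 0.41 and -0.34 ± 0.36. Mapt, which codes for the microtubule protein tau, was at 8.10, 8.84 and 8.08 with solvent and at 8.05, 8.36 and 8.65 with rotenone in the same order of rats, a difference of 0.02 ± 0.24 with overlapping groups. The lysosomal proteases Ctsd and Ctsb differed by 0.03 ± 0.18 and 0.16 ± 0.19. Lamp2, a receptor of chaperone-mediated autophagy, differed by -0.23 ± 0.19 and the deubiquitinase Uchl1 by -0.17 ± 0.19, both near background. The redox-sensitive chaperone Park7 differed by -0.16 ± 0.18.

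Markers of other cells were read for the same rats. The median deviation of rotenone rats 16, 13 and 9 was -0.49, 0.34 and 0.16 for 8 astrocyte genes, -0.56, -0.02 and -0.30 for 8 oligodendrocyte genes and -0.34, 0.17 and -0.07 for 7 GABA neuron genes. It was -0.13, -0.08 and -0.08 for 4 microglia genes, -0.32, 0.17 and 0.02 for 4 endothelial and pericyte genes and 0.09, 0.51 and -0.20 for 3 blood genes. Rat 16 was thus low in several lists beside Sncg, while rats 13 and 9, also low in Sncg, were on both sides of 0 in these lists. The mean log2 level of the astrocyte genes lay between 9.67 and 9.75 with solvent and between 9.29 and 9.98 with rotenone, and that of the oligodendrocyte genes between 8.63 and 9.18 and between 8.51 and 8.88. Of cholinergic, serotonergic and glutamatergic markers 3 of 9 on the array by name were measured. Each of these 3 was above background on all 6 arrays, and their mean log2 level lay between 8.81 and 9.39. Their median deviation was 0.14, 0.65 and -0.08 in rats 16, 13 and 9. Among the markers of this list that were not measured, the vesicular acetylcholine transporter Slc18a3 was above background on 0 arrays. The median differences of these lists were -0.07 (astrocyte), -0.29 (oligodendrocyte), -0.03 (GABA neuron), -0.14 (microglia), -0.17 (endothelial and pericyte), 0.00145 (blood) and 0.09 (cholinergic, serotonergic and glutamatergic). With 1 rat left out these medians ranged from -0.21 to 0.23 (astrocyte), -0.43 to -0.17 (oligodendrocyte), -0.19 to 0.06 (GABA neuron), -0.18 to -0.04 (microglia), -0.19 to 0.02 (endothelial and pericyte), -0.13 to 0.17 (blood) and 0.03 to 0.21 (cholinergic, serotonergic and glutamatergic). At the brightest probe of each gene, 1 of the 7 GABA neuron genes and 1 of the 8 oligodendrocyte genes had an unadjusted p below 0.05 in limma. In each of the other lists it was 0, and over all probes 4.94%. The 2 genes were Gad2, which makes GABA (-0.41 ± 0.17, groups without overlap, above background on 3 arrays), and Mal, a myelin protein (-0.66 ± 0.28, lowest in rat 16). The probes of Mobp, a myelin gene, disagreed: the brightest differed by 0.25 ± 0.23, GE19922 by -1.002 ± 0.396 (unadjusted p 0.0298 in limma) and GE21457 by -0.63 ± 0.27 (unadjusted p 0.0433 in limma). Both GE19922 and GE21457 were lowest in rat 16, and GE21457 was above background on only 4 arrays. The gap junction gene Gjb6 of astrocytes was higher without overlap, by 0.32 ± 0.17. Their part in the difference of Sncg was not tested.

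The pattern of Sncg over the 6 rats was compared with that of 1711 named genes above background on all arrays. The highest Pearson r values were 0.99 for Apbb1, an adaptor that binds the amyloid precursor protein, 0.98 for Retsat, a retinol saturase, 0.98 for the glutathione transferase Gstm3, 0.98 for Hagh, a hydrolase that clears methylglyoxal, and 0.98 for Tkt, the transketolase of the pentose phosphate pathway. Rat 16 was the lowest of the 6 rats in all 5. Of the 1711 genes, 85 had an r over 0.9 with Sncg and 70 had one below -0.9, and the median r was 0.11. An r over 0.9 was found for 20 genes over the 5 rats without rat 16, of which 6 were among the 85. Over these 5 rats r was 0.91 for Apbb1, 1.00 for Retsat, 0.92 for Gstm3, 0.87 for Hagh and 0.87 for Tkt. Retsat had the highest r there, with log2 levels of 8.79 (rat 11), 8.75 (rat 7) and 8.74 (rat 1) with solvent and of 8.15 (rat 16), 8.48 (rat 13) and 8.49 (rat 9) with rotenone. These r values describe 6 or 5 arrays that share the normalization. Slc6a3 was at place 277 of the 1711 and Th at place 1345.

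**Figure D5:**
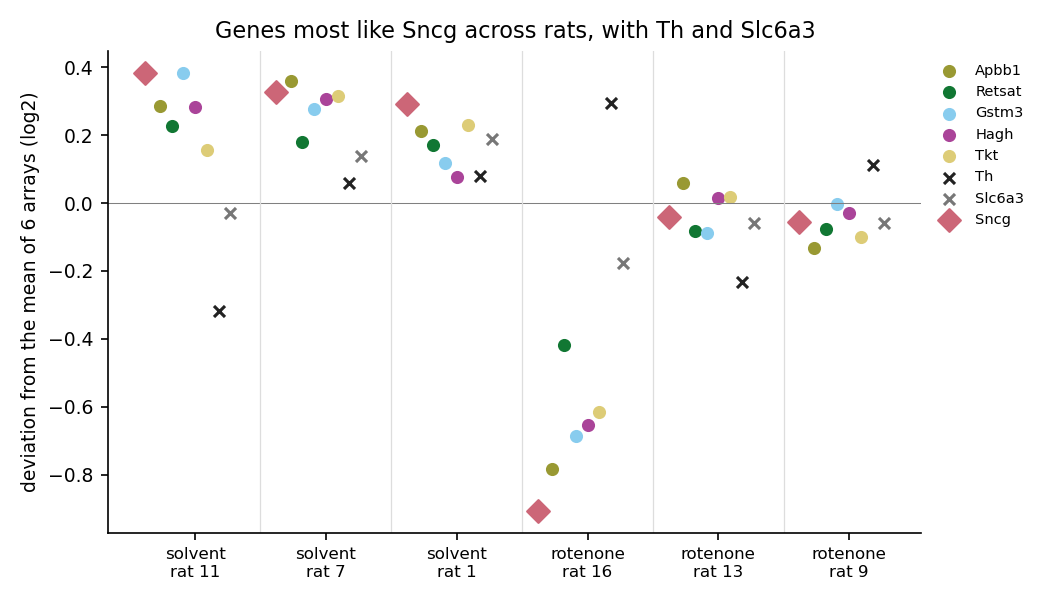
Deviation of each gene from its own mean over the 6 arrays (log2, vertical axis) in each rat (horizontal axis), for Sncg (diamonds), the 5 genes with the highest r (dots) and Th and Slc6a3 (crosses). In rat 16 the diamond and the dots lie below every other rat, while Th lies above its own mean.

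Genes next to Sncg in the genome annotation had small or uncertain differences where they could be tested. The neighbours Shld2, Fam25a, Mmrn2 and Ldb3 had 0 probes by name. Glud1 has 2 probes, of which only GE1165677 was tested. Opn4 and Syt15 were above background on 4 and 3 arrays, with levels near background. Glud1 differed by -0.54 ± 0.34 (SE; unadjusted p 0.149 in limma), Bmpr1a by -0.10 ± 0.16, Opn4 by -0.12 ± 0.17 and Syt15 by 0.18 ± 0.17.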

How the data were processed

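Per the labels, each CodeLink array was hybridised with amplified RNA of 1 rat. The deposited scanner files give linear intensity per spot (mean, pixel median, local background). The authors' scaled intensity is the net intensity divided by about the array's median. The deposited value table repeats it, but the column of solvent rat 7 stands beside the wrong probes: 0.898% of its values equal the scanner file within 1e-06, against 100% in the other columns.

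Probes were named through a RefSeq table of the assembly GRCr8, used for names only; 4675 probes (13.8%) have a gene, for 4013 genes. Intensities were corrected with normexp (offset 50), put on log2 and quantile normalized, and the offset draws differences towards 0. Every spot was kept. Probes the scanner marked neither near background nor masked on 3 or more of 6 arrays were fitted with limma 3.58.1 in R 4.3.3 (two-sided, Benjamini-Hochberg). Each rat is 1 replicate, and this number limits the precision. Lists use the brightest probe of each gene.

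Named genes are Sncg, Th, Slc6a3, up to 2 of each list by lowest p, genes of the partner and modifier lists and the 5 most like Sncg; Ddc, Slc18a3, the probes of Gfra1 and Mobp and the neighbours of Sncg were chosen after their values were seen. The members and lists were chosen with earlier results of these data known. Some items that the rule or the lists take in are not reported here.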

Additional observations from a re-analysis of the deposited data

How the results depend on the processing

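No paired analysis was possible because the groups share no replicate numbers. The difference of Sncg stayed below 0 under every alternative except the value table as deposited (1.40), where the values of solvent rat 7 stand beside the wrong probes; its unadjusted p in limma was 0.0635 with plain subtraction and 0.0953 with the authors' scaled intensity, and with marked spots left out it has no value. That table also gave 3.25 for Slc6a3, r of 0.968 (Sncg with Th) and 0.997 (Th with Slc6a3), and list medians of 1.56 (dopamine neuron), 0.488 (partners), 0.333 (modifiers), -0.0175 (general neuron), 0.902 (cholinergic, serotonergic and glutamatergic), 1.87 (astrocyte), 0.691 (oligodendrocyte), 1.12 (microglia), 0.178 (endothelial and pericyte) and 0.923 (blood). The spot median and the authors' scaled intensity from the scanner files were chosen after seeing the data. Scaled intensity gave 0.000306 for Slc6a3, r of -0.604 (Sncg with Slc6a3) and 0.856 (Th with Slc6a3), and medians of 0.111 (dopamine neuron) and -0.437 (endothelial and pericyte). Spot medians gave 1 called probe, r of 0.0742 (Th with Slc6a3) and -0.256 (partners). Leaving out marked spots gave 2 called probes and medians of -0.299 (GABA neuron) and -0.468 (endothelial and pericyte). Plain subtraction gave -0.135 (modifiers), -0.219 (microglia) and -0.445 (endothelial and pericyte), median scaling -0.205 (microglia), no filter -0.0429 (microglia), a filter on all 6 arrays 0.411 (blood, fewer genes) and cyclic loess r of 0.865 (Sncg with Slc6a3). The genes tested differ where marked spots were left out, without the filter and with the filter on all 6 arrays. For the other settings the cause was not tested. With 1 rat left out, called probes ranged from 0 to 3 (3 without solvent rat 1), Sncg from -0.82 to -0.38, Th from -0.012 to 0.263, r of Sncg with Slc6a3 from 0.621 to 0.889 and r of Th with Slc6a3 from -0.267 to 0.534. List medians then ranged from -0.158 to 0.0311 (dopamine neuron), -0.214 to 0.234 (astrocyte), -0.177 to -0.0415 (microglia), -0.195 to 0.0159 (endothelial and pericyte), and from -0.191 to 0.0594 (GABA neuron). Without rotenone rat 16 the medians of the dopamine neuron, astrocyte, GABA neuron and endothelial lists turned sign.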
